A study of Mus musculus with 4 samples.

Results

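The MHC class II genes were followed in single-nucleus RNA-Seq of mouse lung through 7 genes, chosen by their symbols: H2-Aa, H2-Ab1, H2-Eb1, H2-DMa, H2-DMb1, Cd74 and Ciita, which are 7 of the 32285 genes in the count tables. The lungs came from 2 WT mice (C57/BL6J) and 2 VEcad-TRF2DN-Tg mice (Tg) of the same strain. In Tg mice the VE-cadherin promoter, active in endothelial cells (ECs), drives TRF2DN, a form of TRF2 that blocks the normal protein, which guards telomeres. The labels give an age of 8 to 9 weeks for all 4 mice, and according to the methods of the study the mice were male, the Tg line was kept heterozygous, and both genotypes had been exposed to 10% oxygen for 3 weeks. There was no normoxic group, so every value below is a value under hypoxia. The comparisons ask in which lung cells these genes were transcribed, and whether their levels differed between WT and Tg mice.

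MHC class II molecules display peptides from proteins taken up by the cell to CD4 T cells. Dendritic cells, B cells and macrophages are the classical cells that carry them, and in the lung alveolar type 2 cells and some ECs are known to carry them too. CIITA, the product of Ciita, binds no DNA by itself and is the master coactivator of the class II promoters, where it docks on a complex of RFX, CREB and NF-Y proteins at the conserved X and Y boxes. H2-Aa and H2-Ab1 encode the alpha and beta chains of the I-A molecule, and H2-Eb1 the beta chain of I-E. Cd74 encodes the invariant chain, which fills the peptide groove until the molecule reaches the endosome. H2-DMa and H2-DMb1 encode the chains of H2-DM, which exchanges the remnant of the invariant chain for a peptide.

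In the genome build GRCm38, 5 of the 7 genes lie within 197.1 kb of chromosome 17. H2-DMa (plus strand, chr17:34119541-34139101), H2-DMb1 (plus strand, chr17:34153072-34160230), H2-Ab1 (plus strand, chr17:34257689-34269419), H2-Aa (minus strand, chr17:34282744-34287823) and H2-Eb1 (plus strand, chr17:34305867-34316674) follow each other there. Ciita (plus strand, chr16:10480059-10528418) and Cd74 lie on other chromosomes.

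The promoters were searched for letters of the X and Y boxes, and 3 of them are printed from RefSeq (GRCm38.p6), each 5′ to 3′ on the strand of its gene. The 250 bases before the RefSeq start were searched for H2-Aa, H2-Eb1, H2-DMb1 and H2-DMa. Capitals mark the Y box letters ATTGG or CCAAT on either strand, the letters TGACGTCA of a full X2 box, and the longest run of letters that the H2-Eb1 and H2-DMb1 windows share, AACTGATGATGCT. The H2-Aa and H2-Eb1 sequences end at the base before the start (minus strand, chr17:34287824-34287943, and plus strand, chr17:34305747-34305866), and the H2-DMb1 sequence covers only the shared run and its flanks (plus strand, chr17:34153094-34153123), which lie within the annotated gene because the RefSeq start lies 3′ of its first annotated base.
H2-Aa: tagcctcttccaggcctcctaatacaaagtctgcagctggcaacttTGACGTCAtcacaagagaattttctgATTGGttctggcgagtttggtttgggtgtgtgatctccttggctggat
H2-Eb1: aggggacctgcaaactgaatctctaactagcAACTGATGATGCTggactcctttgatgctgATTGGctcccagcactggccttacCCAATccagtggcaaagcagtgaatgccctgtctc
H2-DMb1: ctagtAACTGATGATGCTaggctgattcac

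The full X2 box was found 74 bases before the start of H2-Aa, and these letters occur on either strand in 1.55% of 32851 promoter windows of 250 bases. A Y box began 48 bases before the start of H2-Aa, 59 and 35 bases before that of H2-Eb1 and 61 bases before that of H2-DMb1. Of the 2 windows held for H2-DMa, 1 had a Y box, 198 bases before its start. Y box letters are common, with 33.8% of all windows holding them. The shared run of 13 bases began 89 bases before the start of H2-Eb1 and 92 bases before that of H2-DMb1, and no other window of the 32851 held it. A match is a description of letters and not of binding. Cd74 lies on the plus strand at chr18:60803848-60812652.

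The libraries held 125261739 to 182014706 unique molecular identifiers (UMIs, each counting 1 captured transcript) per mouse. Barcodes with at least 1500 UMIs, 134745 in all, were matched to lists of marker genes of 19 lung cell classes, none of them a class II gene. A class was reached by 28404 of them, and the 13 classes with at least 5 nuclei in every mouse held 28141. All classes are named by their markers as dendritic cell-like, B cell-like and so on, and "like" is left out below. No class had a marker of another class among its 10 leading genes. The same lists had assigned the barcodes, and barcodes strong for more than 1 class were left out, so this is no test of the classes. Free RNA was abundant. Per 1500 UMIs, the median dendritic nucleus held 9.09 UMIs of its own marker list and 11.1 of the alveolar type 2 list. The free RNA was measured in barcodes with 300 to 800 UMIs, called droplets here, which hold 1949156 to 12600100 UMIs per mouse and too few to stand for a nucleus. Droplets differed between the genotypes, with 15011 and 15673 CPM, the UMIs of a gene scaled to a common total, of the club cell gene Scgb1a1 in WT and 128052 and 43359 in Tg mice, and with 1092 and 2454 CPM of the alveolar type 2 gene Sftpc in WT and 15627 and 12937 in Tg mice. From Scgb1a1, which only club cells should hold, free RNA was estimated as 29.3 to 68.4% of the UMIs of a class in WT and 22.0 to 34.8% in Tg mice. Between 176 and 475 barcodes were shared by each pair of mice. Terf2, the gene of TRF2, stood at 51.9 and 49.7 CPM in WT and at 44.0 and 49.7 CPM in Tg ECs. Whether its 3′ counts include the transgene was not examined, so this value does not check the labels. CPM from 3′ counts is not comparable between genes, so each gene is compared with itself across classes and with its own level in the droplets.

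By mean over the 4 mice, dendritic cells were the cell class with the highest level of each class II gene followed. Mouse by mouse they were above B cells, the next class, in 2 of 4 for H2-Ab1 and in 3 for H2-DMb1 and Cd74. For H2-DMa they were above T cells, the next class, in 3. For H2-Aa the dendritic values began at 255 CPM, and interstitial macrophages reached 399 CPM. The dendritic values of H2-Eb1 began at 206 CPM, above the 170 CPM that interstitial macrophages, the next class, reached. Ciita separated dendritic cells most clearly. In WT replicates 1 and 2 and Tg replicates 1 and 2, dendritic nuclei held 382, 473, 496 and 383 CPM of Ciita, from 132, 241, 184 and 439 UMIs. All 4 mice lay above every value of the next class, the interstitial macrophages, which held 315, 77.7, 142 and 176 CPM from 25 to 37 UMIs per mouse. B cells held 139, 174, 119 and 123 CPM and ECs 110, 154, 65.2 and 84.7 CPM. From interstitial macrophages downward the range of each class overlapped that of its neighbour in the order, through alveolar macrophages (45.5 to 130 CPM), alveolar type 2 cells (46.4 to 79.1), lymphatic ECs (28.6 to 86.6) and pericytes (29.2 to 59.2). T cells, fibroblasts, ciliated, mesothelial and alveolar type 1 cells had lower means than the droplets, in which Ciita stood at 56.0, 51.6, 21.0 and 26.2 CPM.

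**Figure D1:**
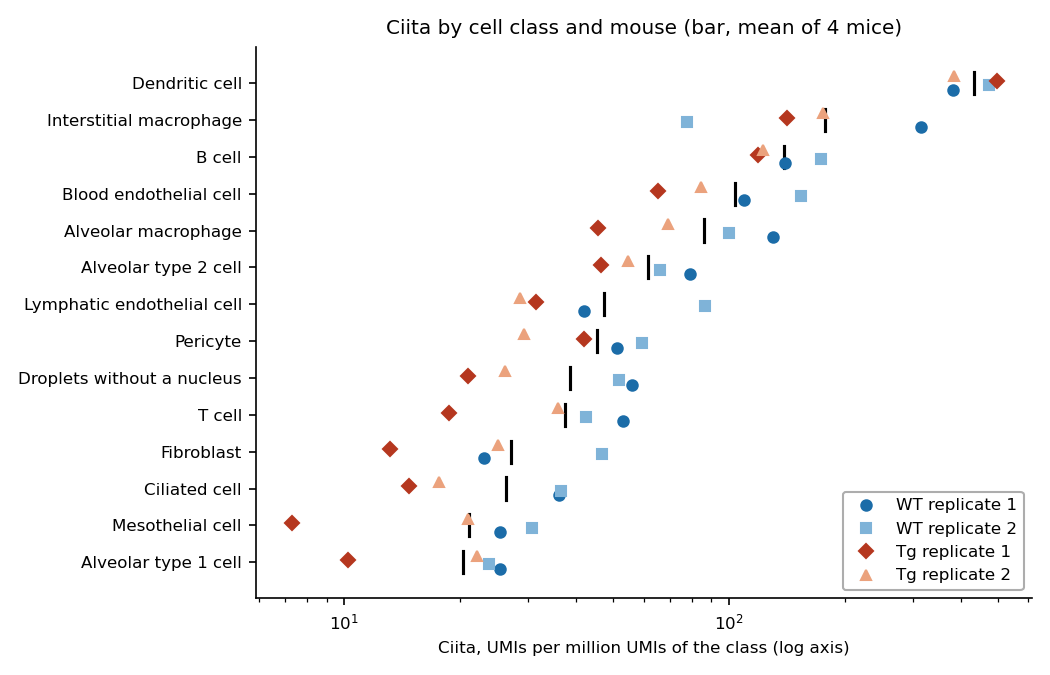
Ciita in each cell class and in droplets without a nucleus, in CPM on a log axis, with 1 point per mouse (blue WT, red Tg) and a vertical line at the mean of the 4 mice. The dendritic points lie at 382 to 496 CPM and do not overlap any other class, while the droplets lie at 21.0 to 56.0 CPM.

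Each class was compared with the other 12 in all 4 mice together (edgeR's quasi-likelihood test with mouse as a term, Benjamini-Hochberg adjustment over all genes of a class). The classes of a mouse share its library, so small p-values here do not stand for many mice. Of the 91 pairs of gene and class, 47 passed an adjusted p of 0.05, with 22 higher and 25 lower, beside a background of 30.1% of all genes (15.5% higher, 14.6% lower). Dendritic cells were higher for 6 of the 7 genes, where 11.8% of all genes were higher in this class. Ciita was higher by 3.04 ± 0.14 (log2, SE, adjusted p = 3.86e-25) and H2-Eb1 by 1.93 ± 0.11 (adjusted p = 1.44e-20). H2-DMb1 was higher by 1.23 ± 0.15, H2-Aa by 1.12 ± 0.10, H2-Ab1 by 0.84 ± 0.10 and Cd74 by 0.74 ± 0.09, all past the threshold. H2-DMa did not pass it in dendritic cells (0.40 ± 0.20, adjusted p = 0.15). Free RNA is spread over all classes, and after its profile was subtracted from each class the dendritic differences were 2.56 for H2-DMb1, 2.60 for H2-Aa, 2.62 for Cd74, 2.93 for H2-Ab1, 3.35 for H2-Eb1 and 3.51 for Ciita. Counts under the expected free RNA were set to 0 in this step. Classes near that level are thereby lowered most, which enlarges these differences by construction, so their size is not a measured level.

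B cells were higher for the same 6 genes as dendritic cells, with 1.27 ± 0.16 for Ciita, 0.89 ± 0.13 for H2-DMb1 and 0.45 to 0.58 for H2-Ab1, H2-Aa, Cd74 and H2-Eb1, where 9.99% of all genes were higher in B cells. The shares of all genes that were higher were 8.56% in interstitial macrophages, 21.3% in alveolar macrophages, 14.2% in ECs and 23.0% in alveolar type 2 cells, so that the 2 of 7 genes called in alveolar macrophages and the 1 in alveolar type 2 cells are near or below the background. Interstitial macrophages, with 24 to 66 nuclei per mouse, were higher for Ciita (1.38 ± 0.26). H2-Aa (0.44 ± 0.14) and H2-Eb1 (0.61 ± 0.19) also passed there, and both were lost without WT replicate 1 (0.32 and 0.39), without Tg replicate 1 (0.23 and 0.34) and without Tg replicate 2 (0.44 and 0.67). Alveolar macrophages were higher for H2-DMb1 (0.84 ± 0.14) and for Ciita (0.57 ± 0.18), the latter lost without WT replicate 1 (0.34). ECs, the cells in which the VE-cadherin promoter drives the transgene in Tg mice, were higher for Ciita (0.82 ± 0.14, adjusted p = 4.82e-06), H2-Ab1 (0.29 ± 0.07) and Cd74 (0.28 ± 0.08). Without WT replicate 2 the H2-Ab1 call was lost (0.21), and without Tg replicate 1 the Cd74 call was (0.26). In alveolar type 2 cells Cd74 was higher by 0.23 ± 0.08 and was lost without any 1 of WT replicate 2, Tg replicate 1 and Tg replicate 2 (0.22 each), while Ciita (0.17 ± 0.14, adjusted p = 0.355) did not pass.

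The lower calls fell in a few classes. Alveolar type 1, ciliated and mesothelial cells and fibroblasts were each lower for Ciita, Cd74, H2-Aa, H2-Ab1, H2-Eb1 and H2-DMb1, and T cells for Ciita alone (−0.87 ± 0.20). Of all genes, 32.8% were lower in ciliated cells, 22.9% in alveolar type 1 cells and 21.2% in mesothelial cells, and the share was smaller in fibroblasts. Free RNA estimated from Scgb1a1 also differed between classes. In WT replicates 1 and 2 and Tg replicates 1 and 2 it was 29.3, 35.3, 22.9 and 25.1% in ciliated cells. It was 43.3, 42.0, 30.7 and 31.9% in ECs and 57.3, 49.2, 32.6 and 34.8% in T cells. Alveolar type 1 and mesothelial cells and fibroblasts lay at 22.0 to 32.6%. A lower call does not by itself mean lower transcription, and the part of free RNA in it was not tested. Ciita differed by −1.57 ± 0.19 (log2) in mesothelial cells and by −1.42 ± 0.17 in alveolar type 1 cells. In ciliated cells, which should lack class II, Ciita was at −1.25 ± 0.18 and H2-Eb1 at −0.90 ± 0.12. Some of these calls were lost with a mouse left out, which is no measure of a smaller difference. In fibroblasts, H2-Aa (−0.35), H2-Eb1 (−0.40), H2-Ab1 (−0.28) and H2-DMb1 (−0.42) each lost theirs without WT replicate 1. H2-DMa was the exception among the genes, with 1 call in 13 classes, in alveolar type 1 cells (0.39 ± 0.12), which was lost without WT replicate 2 (0.31). Lymphatic ECs and pericytes had no call for any of the 7 genes in edgeR, with 2 and 1 at an unadjusted p under 0.05, beside 21.9 and 18.6% of all genes. Of the 47 calls, 32 held under every alternative that was run.

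Set against the droplets, Ciita was above their level in more classes than the other class II genes. Introns were counted, and how the RNA of each gene is split between nuclei and free RNA was not measured. The counts below therefore do not compare transcription between genes. Ciita was above its droplet level in all 4 mice in 6 classes: dendritic cells, interstitial macrophages, B cells, ECs, alveolar macrophages and alveolar type 2 cells. H2-Eb1 was above it in all 4 mice in dendritic cells, and for H2-Aa, H2-Ab1, H2-DMa, H2-DMb1 and Cd74 there was no such class. Cd74 was below the droplets in all 4 mice in 12 of 13 classes, H2-Aa and H2-Ab1 in 11, H2-Eb1 in 10, H2-DMa and H2-DMb1 in 9 and Ciita in 4. The droplets themselves held the highest mean of all classes for Cd74, H2-Ab1 and H2-DMa and ranked 9 of 14 for Ciita. The matching shares of all genes were not worked out, so these counts of classes cannot be read against a background. Barcodes of 1000 to 1500 UMIs held 65.8 and 64.8 CPM of Ciita in WT and 32.2 and 37.0 CPM in Tg mice. These are 118 to 154% of its droplet levels, while Cd74 stood at 89.3 to 93.3% of its own.

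The dendritic values are given gene by gene. H2-Eb1 stood at 206, 271, 332 and 338 CPM in dendritic nuclei of WT replicates 1 and 2 and Tg replicates 1 and 2, and at 81.1, 122, 131 and 227 CPM in the droplets of the same mice. H2-Aa stood at 255, 424, 351 and 462 CPM in dendritic nuclei and at 188, 333, 285 and 601 CPM in droplets. Dendritic nuclei were therefore above the droplets in every mouse for H2-Eb1 and in all but Tg replicate 2 for H2-Aa. H2-Ab1 stood at 133, 181, 251 and 317 CPM against 132, 310, 210 and 501 in droplets. H2-DMb1 stood at 92.7, 96.2, 124 and 114 CPM against 47.7, 107, 52.4 and 111 in droplets, and H2-DMa at 34.8, 15.7, 67.4 and 45.4 CPM against 20.2, 30.2, 63.0 and 91.8. The ranges of dendritic nuclei and droplets overlapped for all of these genes, H2-Eb1 included. Cd74, the invariant chain, stood at 348, 595, 782 and 1142 CPM in dendritic nuclei and at 337, 750, 952 and 2205 CPM in droplets, and only WT replicate 1 held it above its droplets. H2-Eb1 and H2-DMb1 have near copies (H2-Eb2 and H2-DMb2), between which 3′ counting can split reads, so their levels are uncertain by an amount that was not measured.

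**Figure D2:**
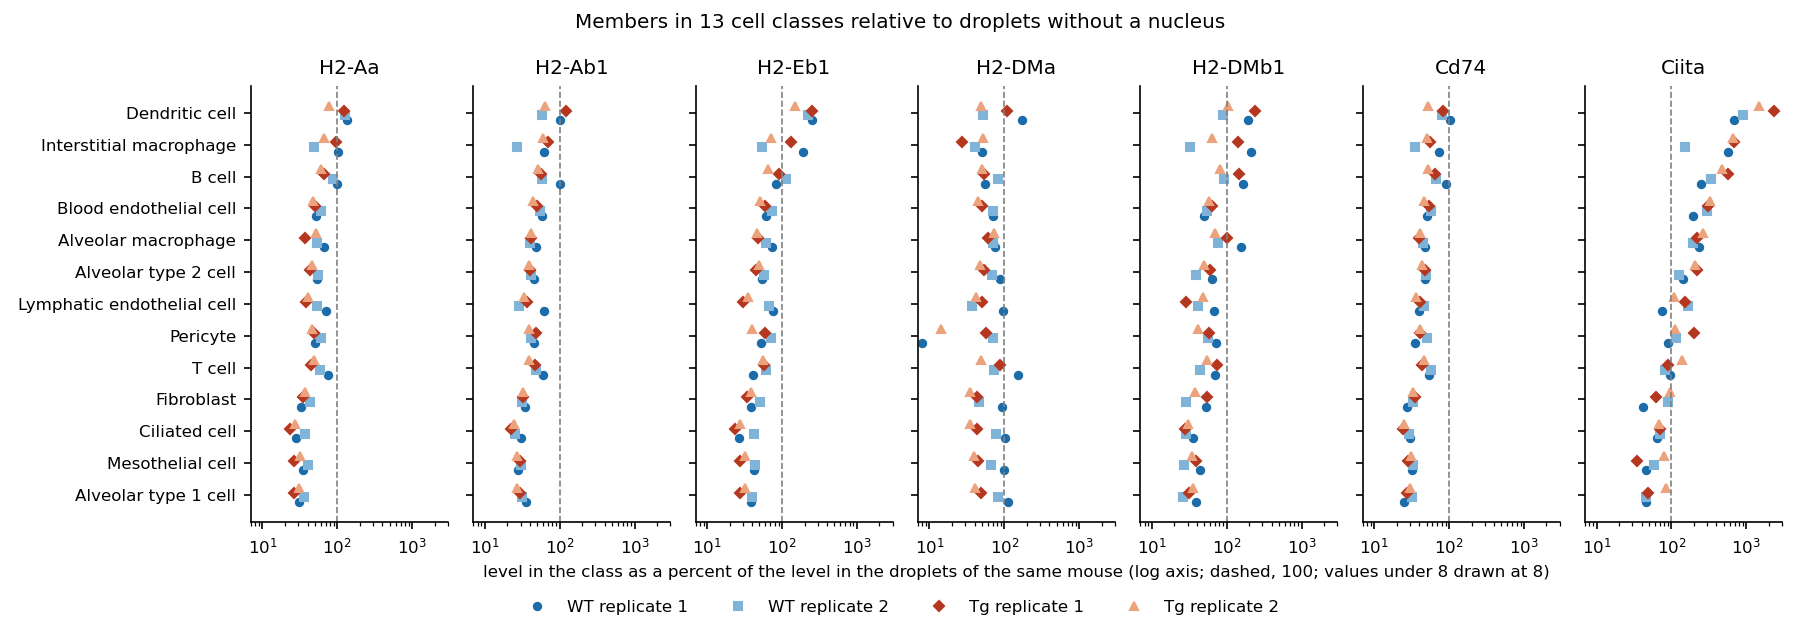
The level of each of the 7 genes in each cell class as a percentage of its level in the droplets of the same mouse, on a log axis, with 1 point per mouse, a dashed line at the droplet level and values under 8% drawn at 8%. Ciita in dendritic cells lies at 683 to 2368%, H2-Eb1 there at 149 to 254%, and Cd74 in ECs at 46.2 to 57.4%.

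The direct comparison of each class with the droplets of the same mice (edgeR's quasi-likelihood test, mouse as a term), which was added after the data had been seen, gave 75 calls among 91 pairs. Only 7 were higher and 68 were lower, beside a background of 53.0% of all genes called (23.1% higher, 29.9% lower) and median changes of all genes of −0.17 to −0.06. The higher ones were Ciita in dendritic cells (3.52 ± 0.22, adjusted p = 2.09e-10), interstitial macrophages (2.04 ± 0.27), B cells (1.85 ± 0.17), ECs (1.51 ± 0.14, adjusted p = 2.02e-06), alveolar macrophages (1.22 ± 0.16) and alveolar type 2 cells (0.88 ± 0.15), and H2-Eb1 in dendritic cells (1.01 ± 0.19, adjusted p = 0.000243). In dendritic cells H2-DMb1 (0.40 ± 0.21), H2-Aa (0.09 ± 0.20), H2-Ab1 (−0.39 ± 0.20), Cd74 (−0.47 ± 0.23) and H2-DMa (−0.50 ± 0.27) did not pass. Ciita was below the droplets in alveolar type 1 (−0.63 ± 0.17), ciliated (−0.44 ± 0.15) and mesothelial cells (−0.77 ± 0.20). With barcodes of 100 to 300 UMIs as the droplets, only 5 calls were left among 73 pairs tested, where the 4 libraries held 18999 to 20456 UMIs each.

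The free RNA that a class should hold can be worked out from its Scgb1a1, and the observed UMIs were divided by it. For Ciita in dendritic nuclei the ratio was 14.5 and 25.3 in WT and 87.0 and 50.3 in Tg mice. B cells gave 3.64, 8.07, 17.1 and 13.8, ECs 4.52, 7.09, 10.2 and 10.2, and alveolar type 2 cells 3.62, 3.46, 7.69 and 7.11. In ciliated cells Ciita gave 2.21, 2.01, 3.06 and 2.68. Dendritic, B and alveolar type 2 cells and ECs thus lay above the ciliated cells in every mouse, and the ciliated ratios were themselves above 1.

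For the chain genes the same ratio was lower. H2-Eb1 in dendritic nuclei gave 5.39, 6.12, 9.32 and 5.10, H2-DMb1 4.14, 2.49, 8.70 and 3.54, and H2-Aa 2.89, 3.51, 4.53 and 2.63. H2-Ab1 gave 2.14, 1.61, 4.40 and 2.17, and Cd74 2.20, 2.18, 3.02 and 1.78. All of these dendritic ratios were above 1. In ciliated cells H2-Aa lay at 0.97 to 1.09, Cd74 at 0.82 to 1.05, H2-Ab1 at 0.71 to 1.05, H2-Eb1 at 0.92 to 1.21 and H2-DMb1 at 0.82 to 1.23, near what free RNA alone would give. H2-DMa differed from these genes in that its ratio was 3.67, 1.43, 3.93 and 1.70 in dendritic nuclei and 3.53, 2.20, 1.91 and 1.39 in ciliated cells, which were above the dendritic nuclei in WT replicate 2. The dendritic value of that mouse rests on 8 UMIs, and its interval (0.618 to 2.82) includes 1. In ECs Cd74 lay at 1.18 to 1.78 and H2-Ab1 at 1.29 to 1.63. The intervals in the plot of these ratios cover counting error only, and the estimate assumes that the free RNA of a class has the composition of the droplets.

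**Figure D3:**
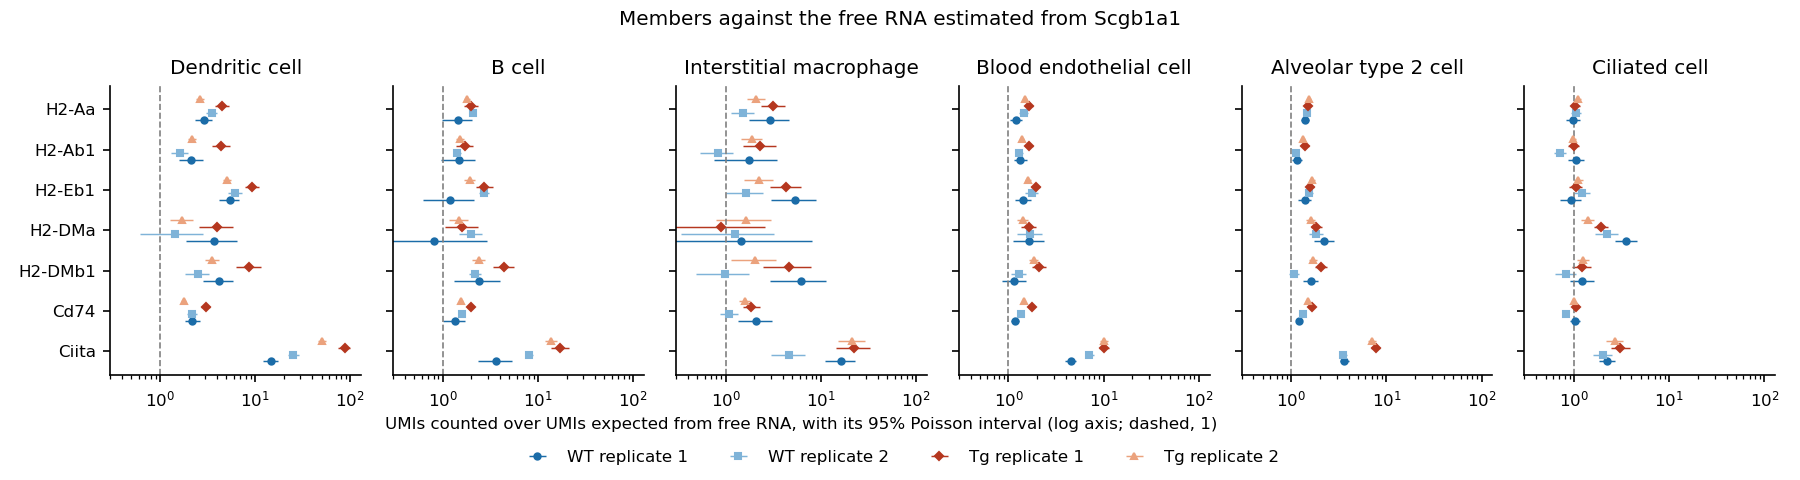
Observed UMIs of each gene divided by the UMIs expected from free RNA, on a log axis, in 6 cell classes, with 1 point per mouse and bars for the 95% Poisson interval. A value of 1 is what free RNA would give. Dendritic cells lie at 14.5 to 87.0 for Ciita and at 1.78 to 3.02 for Cd74, and ciliated cells at 0.82 to 1.05 for Cd74.

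To compare how many nuclei held a transcript, every nucleus was thinned to 1500 UMIs, which left none out. Ciita was then seen in 42.6, 47.3, 46.6 and 41.1% of dendritic nuclei (44.4% ± 3.02, SD, n = 4 mice), against 63.0, 73.1, 69.0 and 64.4% before thinning, at median depths of 2806, 4332, 2930.5 and 3393.5 UMIs. In ciliated nuclei, as the background class, the thinned share was 5.86, 6.23, 2.27 and 3.24% and the share before thinning 19.4, 18.1, 5.77 and 8.78%, at median depths of 4583.5, 4693, 3583.5 and 4454 UMIs. B cells (16.9 to 19.8% over the 4 mice), interstitial macrophages (25.0, 13.3, 16.7 and 16.1%) and ECs (14.6, 19.0, 8.92 and 11.8%) lay between, and each was above the ciliated share in every mouse. Thinning evens out depth and not free RNA. Free RNA was estimated as 29.3, 35.3, 22.9 and 25.1% in ciliated and 47.0, 36.3, 27.2 and 29.2% in dendritic cells. It was 68.4, 41.6, 33.3 and 33.9% in B cells, and 32.8% in interstitial macrophages of WT replicate 2. The ciliated share can thus understate the background of dendritic and B cells. H2-Eb1 was seen in 24.1, 40.9, 41.4 and 36.0% of thinned dendritic nuclei and in 4.5, 9.7, 5.3 and 10.0% of ciliated ones. Cd74 was seen in 45.4, 64.5, 67.2 and 82.2% of thinned dendritic nuclei. Its ciliated share was 15.5, 37.4, 34.4 and 62.2%, and both shares were lowest in WT replicate 1 and highest in Tg replicate 2, as was the Cd74 level of the droplets.

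**Figure D4:**
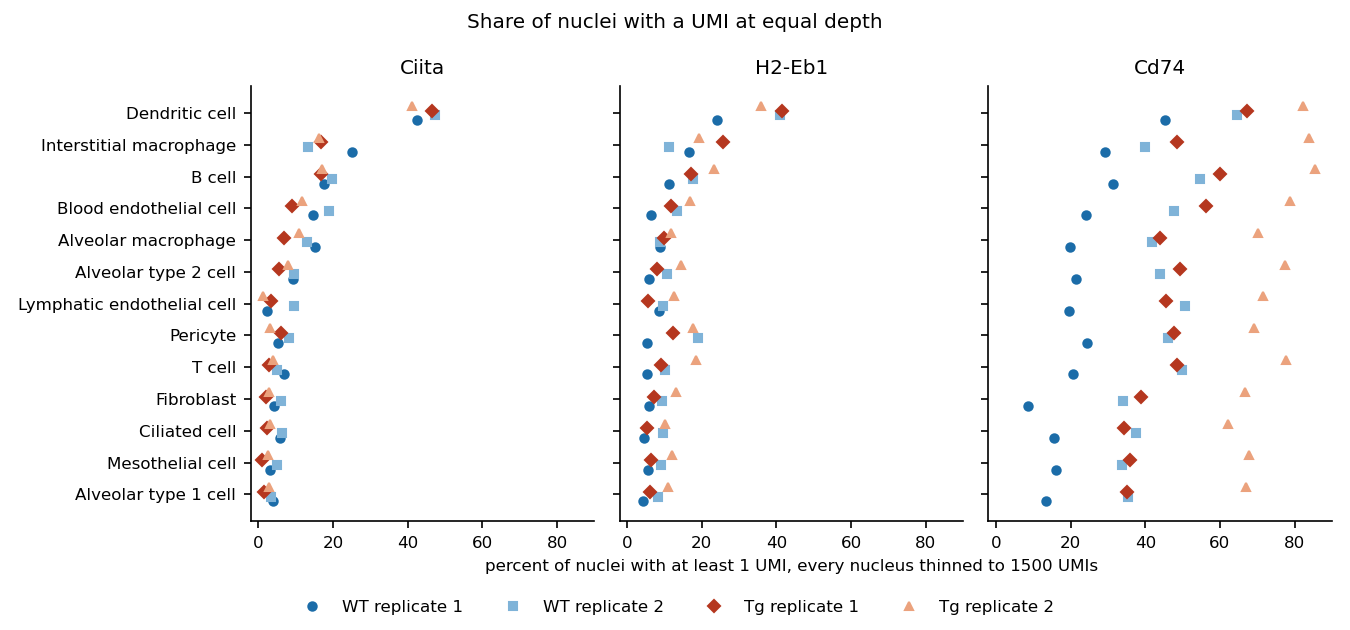
Percentage of nuclei with at least 1 UMI of Ciita, H2-Eb1 or Cd74 after thinning to 1500 UMIs, in the 13 classes, with 1 point per mouse. For Ciita the dendritic points lie at 41.1 to 47.3% and the ciliated points at 2.27 to 6.23%, and for Cd74 the dendritic points at 45.4 to 82.2% and the ciliated points at 15.5 to 62.2%.

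Between the genotypes, Cd74 and H2-DMa had higher values and Ciita had lower values in Tg than in WT mice in most classes and in the droplets, and few of these differences passed the test. In ECs, Cd74 stood at 172 and 430 CPM in WT and at 521 and 1019 CPM in Tg mice. H2-DMa stood at 14.3 and 21.4 CPM in WT and 31.5 and 41.1 CPM in Tg ECs, and Ciita at 110 and 154 CPM in WT and 65.2 and 84.7 CPM in Tg ECs. For these 3 genes the EC values of the genotypes did not overlap, and for H2-Aa, H2-Ab1, H2-Eb1 and H2-DMb1 they did. Over all pairs of gene and class, both Tg mice lay above both WT mice in 30.7% and below them in 23.5%. In the droplets, Cd74 stood at 337 and 750 CPM in WT and 952 and 2205 CPM in Tg mice, H2-DMa at 20.2 and 30.2 against 63.0 and 91.8 CPM, and Ciita at 56.0 and 51.6 against 21.0 and 26.2 CPM. Replicates of a genotype were far apart for Cd74, by 2.51-fold between the WT mice and 1.96-fold between the Tg mice in ECs, beside 2.56-fold between the genotype means.

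The test of Tg against WT within each class (edgeR's quasi-likelihood test, n = 2 mice per genotype) called 6 of 87 pairs, 5 higher and 1 lower, beside a background of 7.17% of all genes (6.2% higher, 0.972% lower). The share of members called was thus close to that of all genes. At an unadjusted p under 0.05 there were 33 pairs, beside 25.2% of all genes. Higher in Tg mice were Cd74 in dendritic cells (1.10 ± 0.25, log2, adjusted p = 0.0227), interstitial macrophages (1.79 ± 0.35, adjusted p = 0.0142) and pericytes (1.49 ± 0.41, adjusted p = 0.0407), H2-Ab1 in dendritic cells (0.92 ± 0.22, adjusted p = 0.0247) and H2-DMa in alveolar type 2 cells (1.01 ± 0.20, adjusted p = 0.0251). Ciita was lower in ciliated cells (−1.22 ± 0.23, adjusted p = 0.0304), where its level (14.7 to 36.7 CPM) was below that of the droplets in every mouse. None of the 6 calls held in every alternative: without WT replicate 1, 3 of them passed, without Tg replicate 1 only 2 and without Tg replicate 2 none, while all 6 passed without WT replicate 2. Each of these fits leaves 1 mouse in a genotype, which is assumed to vary like the 2 mice of the other, so a call lost in them is no measure of a smaller difference. After subtraction of free RNA none of the 6 passed, which by itself is no measure of a smaller difference either. In ECs neither Ciita (−0.83 ± 0.21, adjusted p = 0.0508) nor H2-DMa (1.01 ± 0.27, adjusted p = 0.0586) nor Cd74 (1.34 ± 0.42, adjusted p = 0.0911) passed.

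By gene, Cd74 was above 0 in 13 of 13 classes with a median log2 difference of 1.36, H2-DMa in 11 of 11 with 0.95, H2-Ab1 in 13 of 13 with 0.56, H2-Aa in 13 of 13 with 0.38, H2-Eb1 in 12 of 13 with 0.46 and H2-DMb1 in 8 of 12 with 0.24. Ciita was below 0 in 10 of 12 with a median of −0.73, and the medians of all genes were −0.02 to 0.04. The exceptions for Ciita were the classes with its highest levels, dendritic cells (0.10 ± 0.21, adjusted p = 0.851) and interstitial macrophages (0.05 ± 0.55, adjusted p = 0.977). The interstitial macrophage value is uncertain, since the WT mice differed 4.06-fold there and the mean CPM of Tg mice was 0.81 of that of WT mice. B cells, the next class by level, were at −0.42. In CPM, both Tg mice lay above both WT mice in 12 of 13 classes for Cd74 and for H2-DMa, in 3 for H2-Eb1, in 2 for H2-Ab1 and in 1 each for H2-Aa and H2-DMb1, beside a background of 30.7% of all pairs of gene and class. Both lay below for Ciita in 10 of 13 classes, beside 23.5%. The classes of a mouse share its library and its free RNA, so these counts do not add up as independent observations. Interstitial macrophages and pericytes were not tested for H2-DMa, nor pericytes for H2-DMb1 and Ciita, because of the filter on low counts.

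**Figure D5:**
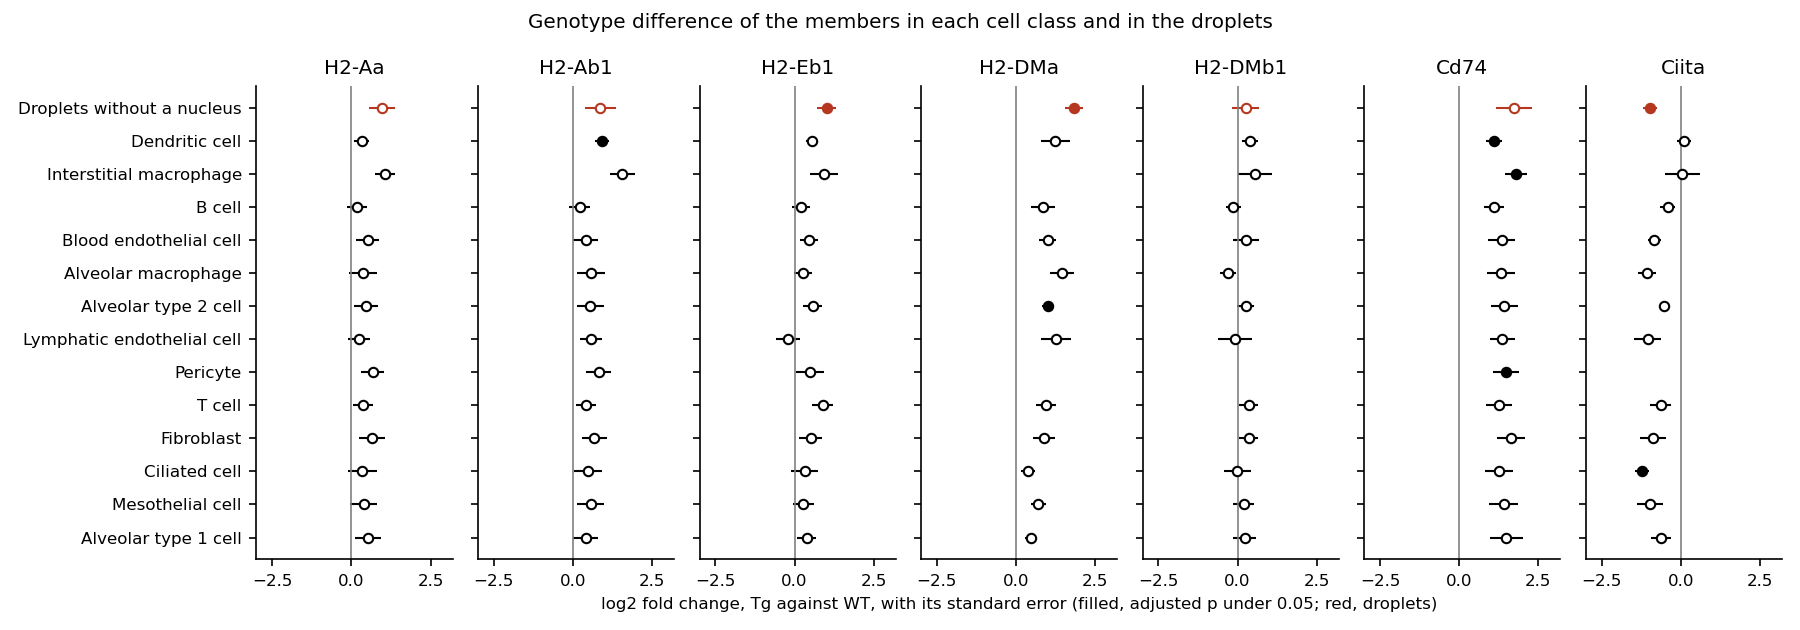
Log2 difference of Tg against WT for each of the 7 genes in each cell class and in the droplets, with bars of 1 SE, filled points where the adjusted p was under 0.05 and the droplets in red. Cd74 lies above 0 in all 13 classes and at 1.73 in the droplets, and Ciita lies below 0 in 10 of 12 classes and at −0.96 in the droplets.

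In the droplets by themselves, 3 of the 7 genes passed the test of Tg against WT, beside a background of 25.6% of all genes (14.5% higher, 11.0% lower). H2-DMa was higher by 1.83 ± 0.27 (edgeR, adjusted p = 0.0178), H2-Eb1 higher by 1.02 ± 0.30 (adjusted p = 0.0495) and Ciita lower at −0.96 ± 0.23 (adjusted p = 0.0293). Cd74 (1.73 ± 0.56, adjusted p = 0.0626), H2-Aa (0.96 ± 0.41, adjusted p = 0.124), H2-Ab1 (0.87 ± 0.49, adjusted p = 0.221) and H2-DMb1 (0.26 ± 0.43, adjusted p = 0.674) did not pass. Without Tg replicate 1 or without Tg replicate 2 no gene passed, and without WT replicate 1 only H2-DMa did (1.57), in fits that again rest on the spread of 1 genotype. In CPM, both Tg mice were above both WT mice for H2-DMa, H2-Eb1 and Cd74 and below for Ciita, beside backgrounds of 26.8% above and 38.9% below.

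Whether a class changed with genotype in another way than its droplets was tested as an interaction, with mouse as a term. The test called 11 of 91 pairs, 2 with a higher and 9 with a lower change than the droplets, beside a background of 7.68% of all genes (6.13% higher, 1.55% lower) and medians of all genes of −0.01 to 0.27. For Ciita, the difference was 0.90 ± 0.26 in dendritic cells (adjusted p = 0.0478) and 0.61 ± 0.20 in alveolar type 2 cells (adjusted p = 0.0265), and neither call held in every alternative. For H2-DMa, the rise in the droplets exceeded that in 5 classes, at −1.53 ± 0.26 in ciliated cells (adjusted p = 0.00333), −1.26 ± 0.23 in alveolar type 1 cells (adjusted p = 0.000126), −1.10 ± 0.28 in mesothelial cells, −0.79 ± 0.27 in ECs and −0.64 ± 0.22 in alveolar type 2 cells. The ciliated and alveolar type 1 values passed in all alternatives except with droplets of 100 to 300 UMIs. H2-Eb1 was lower against the droplets in lymphatic ECs (−1.26 ± 0.33), mesothelial (−0.76 ± 0.22) and alveolar type 1 cells (−0.58 ± 0.20), and H2-Aa in T cells (−0.75 ± 0.22). Cd74 had 13 of 13 values below 0 and no call, with 3 at an unadjusted p under 0.05 beside 19.6% of all genes, and in ECs its difference was −0.31 ± 0.19 (adjusted p = 0.303). The part that the free RNA plays in the Cd74 and Ciita differences between genotypes was not tested beyond these values.

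Within the ECs, Ciita was compared between capillary types by their markers. General capillary-like nuclei, 214 to 646 per mouse, held 130, 174, 74.3 and 96.4 CPM, and aerocyte-like nuclei, 10 to 49 per mouse, held 27.0, 77.8, 42.9 and 47.3 CPM from 1, 6, 5 and 9 UMIs. General capillaries were higher in all 4 mice, and the ranges overlapped by the WT replicate 2 value of the aerocytes. With so few aerocyte UMIs no test was run.

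The other genes of the pathway, 26 in the count table, were followed with the same tests. They comprised the further class II chains, the enhanceosome proteins that CIITA docks on, endosomal processing enzymes, the March ubiquitin ligases that turn class II molecules over, costimulatory ligands and interferon gamma signalling, which induces Ciita. Against the other classes, 61 of 312 pairs were higher and 69 lower, beside the 15.5% higher and 14.6% lower of all genes. Dendritic cells were higher for 12 and lower for 2 of the 24 genes tested in them, and B cells for 11 and 1 of 24, where 11.8% of all genes were higher in dendritic cells and 9.99% in B cells. All 3 costimulatory genes were higher in dendritic cells, B cells and interstitial macrophages. Cd86, a ligand of CD28 on T cells, was higher by 4.66 ± 0.14 in dendritic cells (edgeR, adjusted p = 8.01e-34) and by 3.08 ± 0.25 in interstitial macrophages, and Cd80 by 3.04 ± 0.16 in dendritic cells. H2-Ob, a chain of the H2-O molecule that restrains H2-DM in B cells, was higher by 3.35 ± 0.21 in B cells. Against the droplets, 60 of 303 related pairs were higher and 113 lower, beside the 23.1% and 29.9% of all genes. Cd86 was higher there by 4.45 ± 0.24 and Cd80 by 3.23 ± 0.21 in dendritic cells, and March1 by 2.56 ± 0.22 in B cells.

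Between genotypes, 3 of 269 related pairs were higher and 12 lower in Tg mice, with a median log2 difference of −0.26, beside the 6.2% higher and 0.972% lower of all genes, among which higher calls outnumbered lower ones. Ifi30, the thiol reductase of antigen processing, was higher by 1.55 ± 0.38 in fibroblasts (edgeR, adjusted p = 0.0444) and by 1.64 ± 0.41 in the droplets (adjusted p = 0.0336). Cd40 was lower in alveolar type 2 cells, at −1.89 ± 0.44 (adjusted p = 0.0381). Within classes, the enhanceosome genes had no call in 66 pairs. In the droplets, 3 related genes were higher and 4 lower of 26, near the shares of all genes (14.5% and 11.0%), among them Rfxap (1.21 ± 0.30), Cd86 (−1.47 ± 0.41) and March1 (−1.20 ± 0.24). The enhanceosome gene Nfyc, a subunit of NF-Y singled out after its values had been seen, was also lower there, at −1.17. In the interaction test against the droplets, 17 of 318 related pairs had a higher and 2 a lower change, beside the 6.13% and 1.55% of all genes. The higher ones were Nfyc in 7 of 13 classes, March1 in 6, Jak2 in 3 and Creb1 in 1, and the lower ones Ctss and Ifi30 in 1 class each. The largest were March1 in B cells (1.27 ± 0.31, edgeR, adjusted p = 0.00529), Ctss in alveolar macrophages (−0.98 ± 0.26) and March1 (0.95 ± 0.29) and Nfyc (0.94 ± 0.27) in lymphatic ECs. All of these share the droplets of the same 4 mice.

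Across the 52 sums of class and mouse, Ciita followed the chain genes unevenly. On log2(CPM + 1), its Pearson correlation was 0.80 with H2-DMb1, 0.76 with H2-Eb1, 0.64 with H2-Aa, 0.51 with H2-Ab1, 0.27 with Cd74 and −0.05 with H2-DMa. Among 15944 genes, those most like the mean of the 7 members were Psap (0.85), Tnfrsf13b (0.81), Erp29 (0.81), Snx20 (0.80), Arid4a (0.79), Gusb (0.79), Snx3 (0.79), Gdi2 (0.79), Tgfb1 (0.78) and Arpc2 (0.78). The genes most like Ciita alone, a choice added after the data had been seen, began with Rel (0.87), Cd83 (0.84) and Actr3 (0.83). The sums of a mouse share library, depth and free RNA, so these correlations are descriptions.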

How the data were processed

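Nuclei of 4 mouse lungs, 2 WT and 2 Tg, were sequenced with the 10x 3′ kit. The authors deposited unfiltered matrices of UMI counts per gene and barcode, made with Cell Ranger 6.1.1 with introns counted against mm10; their removal of free RNA, multiplets and batch effects is not in these counts. Samples were grouped by the genotype in the labels. The p-values of Tg against WT measure the spread between mice of a genotype. In the tests with mouse as a term, level differences between mice are removed. Their p-values rest on how differences between classes, or between a class and droplets, varied from mouse to mouse.

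Barcodes with at least 1500 UMIs were scored against 238 marker genes by log-likelihood ratio (minimum 15, and 5 above the next class). No doublet caller was run, and barcodes strong for more than 1 class, 4.90 to 9.88% of those past the minimum, were left out. Barcodes with fewer than 3 markers of their class, or an own marker score under 5, were also left out. These were 625 and 1529 in WT and 3396 and 6380 in Tg mice. Club, smooth muscle, NK and plasma cells, monocytes and neutrophils fell under 5 nuclei in a mouse. Counts were summed per class and mouse, filtered (filterByExpr, minimum 10), scaled by TMM and tested with edgeR's quasi-likelihood test across all genes, with Benjamini-Hochberg adjustment and a threshold of 0.05. SE is the log2 difference divided by the square root of F. Intervals cover counting error only.

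Named were the 7 members, at most the 4 largest calls of the related list per comparison, and the 10 genes most like the members' mean; 1 related gene that this rule names is not reported here. The members and lists were chosen with earlier results of these data known. Alternatives were DESeq2, no filter, each mouse left out, the replicate number as a block, 3000 UMIs per nucleus, a stricter class minimum (30), free RNA subtracted and other droplets. Droplets of 1000 to 1500 UMIs and the test of classes against droplets were chosen after seeing the data. In simulated counts, the test recovered 90% of genes changed 4-fold between genotypes in dendritic cells (7564 genes), and 34.5% of those changed 2-fold (7543 genes). Of the calls, 4.26% and 8% were false. These counts were drawn around a common mean with a fixed spread that was not estimated from these mice. The shares therefore do not give the power of the test in these data.

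The tools were edgeR 4.0.16, DESeq2 1.42.0, limma 3.58.1 and data.table (1.17.8) under R 4.3.3, and pandas 2.3.3, NumPy 2.4.6, SciPy 1.17.1 and Matplotlib 3.10.9 under Python 3.11.15.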

Additional observations from a re-analysis of the deposited data

Results flagged for a closer look

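For 11 pairs of gene and class, the difference of Tg against WT in the class was unlike that in the droplets without a nucleus of the same mice by the interaction test (edgeR's quasi-likelihood test, Benjamini-Hochberg adjustment). Values below are the log2 change in the class minus that in the droplets.

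For Ciita, this was 0.90 in dendritic cells, where the class alone showed 0.10 and the droplets −0.96, and 0.61 in alveolar type 2 cells. Dendritic Ciita also passed with no filter, at 3000 UMIs, without WT replicate 2, without Tg replicate 2 and with droplets of 1000 to 1500 UMIs, and alveolar type 2 Ciita passed at 3000 UMIs alone.

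For H2-DMa, it was −1.53 in ciliated, −1.26 in alveolar type 1, −1.10 in mesothelial, −0.64 in alveolar type 2 cells and −0.79 in ECs, with the droplets at 1.83 and these classes at 0.37 to 1.01. The ciliated and alveolar type 1 values passed without any single mouse.

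For H2-Eb1, it was −1.26 in lymphatic ECs, −0.76 in mesothelial and −0.58 in alveolar type 1 cells, and for H2-Aa −0.75 in T cells. These 4 were lost without WT replicate 1 and without Tg replicate 1, and passed without Tg replicate 2.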

How the results depend on the processing

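The precision is limited by 2 mice per genotype and by free RNA. The differences between genotypes changed most with the mice and settings chosen. Against 6 calls of Tg against WT in the classes, there were 24 with no filter on low counts (20 higher, 4 lower), 3 at 3000 UMIs per nucleus, 2 after subtraction of free RNA, and 1 to 34 with 1 mouse left out (10, 34, 8 and 1 without WT replicate 1, WT replicate 2, Tg replicate 1 and Tg replicate 2). In the droplets, against 3 calls there were 6 with no filter, 1 with droplets of 100 to 300 UMIs, where 1 member was tested, and 0 to 6 with 1 mouse left out, the 0 without either Tg mouse. For the interaction of class and droplets, against 11 calls there were 3 with DESeq2, 6 with no filter, 7 with the stricter class minimum, 0 with droplets of 100 to 300 UMIs, 4 with those of 1000 to 1500 UMIs, and 2 to 18 with 1 mouse left out (2 without Tg replicate 1 and 18 without Tg replicate 2). A fit without 1 mouse has a single mouse in its genotype, which is assumed to vary like the other genotype. The shares of all genes called under these settings are not given here. These counts therefore cannot be read against a background, and they are not results about the members. The cause of these changes was not tested.

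The replicate numbers pair the mice only as labels, with 2 pairs and correlations of their deviations of −0.075 to 0.25. With the replicate number as a block, 22 pairs of gene and class passed (19 higher, 3 lower), among them the 6 of the unblocked test, and in the droplets 3. The share of all genes called with the block is not given here, so this number cannot be read against a background.

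Of the 47 calls of a class against the others, 32 passed in every alternative, and the number ranged from 38 to 48. The numbers of classes against droplets ranged from 64 to 79. The shares of all genes called under these settings are not given here, so these counts cannot be read against a background. With droplets of 100 to 300 UMIs the number fell to 5. These droplets held 18999 to 20456 UMIs per mouse, so values set against them rest on few UMIs and their signs are not results. There, called values changed sign in alveolar type 2 cells for H2-DMa (0.56), H2-DMb1 (0.33), H2-Ab1 (0.031), H2-Aa (0.047), H2-Eb1 (0.48) and Cd74 (0.32), in ECs for H2-DMa (0.11), H2-DMb1 (0.14), H2-Eb1 (0.33) and Cd74 (0.10), in ciliated cells (0.30) and mesothelial cells (0.095) for H2-DMa, and, in the interaction, in T cells for H2-Aa (0.81).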
